A study of Homo sapiens with 6 samples.

Results

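Interferon-gamma-treated cultures transfected with a BTN1A1 expression vector were compared with interferon-gamma-treated cultures transfected with an empty vector (EV), using 4 of the 6 libraries of the series. The 4 libraries were chosen by their treatment label, and the 2 untreated libraries served only as a reference. All cultures carried the label PC3, an established human line grown from a prostate carcinoma that had spread to bone, and the messenger RNA of each culture was counted with the 770 probes of the nCounter PanCancer IO 360 panel, which reads a colour barcode for every captured molecule and needs no amplification. The groups were EV with 100 ng/ml interferon-gamma for 24 h, EV with 100 ng/ml for 48 h, the BTN1A1 vector with 100 ng/ml for 24 h and the BTN1A1 vector with 100 ng/ml for 48 h. Untreated EV and BTN1A1 libraries were both labelled 48 h. Each group held 1 library, and the labels do not say whether the transfected cultures were clones or pools. The question was which transcripts differed between the vectors while the cytokine was present.

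Interferon-gamma is made by T and NK cells and binds the receptor chains IFNGR1 and IFNGR2, which activate the kinases JAK1 and JAK2 and, through them, STAT transcription factors. The first targets include the transcription factor IRF1, and a second layer of genes follows that serves antigen presentation, cell-autonomous defence and the attraction of T cells. BTN1A1 belongs to the butyrophilins, membrane proteins that resemble the B7 ligands through which T cells are stimulated or restrained. The panel has 0 probes for BTN1A1, and its level was not measured.

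The libraries with the BTN1A1 label went against their cell line label, and they are called the libraries labelled BTN1A1 throughout. STAT3, a transcription factor whose gene PC3 is known to have lost, stood at 10 and 17 counts in EV (24 h and 48 h) against 593 and 444 in those labelled BTN1A1. Without the cytokine it stood at 20 and 383 counts. The epithelial adhesion molecule EPCAM, which PC3 expresses, stood at 242 and 210 counts in EV against 29 and 59 in those labelled BTN1A1. The receptor kinase EGFR stood at 324 and 292 counts against 28 and 36, and the cadherin CDH1 at 197 and 145 against 26 and 31. The vector and the origin of the cultures therefore cannot be told apart in any difference below.

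Total counts reached 441611 and 403510 with EV and 297242 and 221633 with the BTN1A1 label. The ribosomal protein gene RPL23 took 2.39% and 1.66% of these totals in EV and 12.52% and 17.58% in the libraries labelled BTN1A1. Counts were therefore scaled by 20 housekeeping genes, whose geometric means were 542, 440, 586 and 407 counts in the same order. Over 69 lymphocyte and myeloid marker genes, which such cultures should lack, the median was 20 to 23 counts per treated library and the 90th percentile 34.4 to 41. Counts in that range are called background.

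The sequences before the start of 5 interferon-inducible genes are shown first, because transcripts of these genes separated the vectors under the cytokine. They were picked after their values were seen. Each is the 250 bases before the annotated start in the RefSeq table of GRCh38.p14, 5′ to 3′ on the gene's strand. Capitals mark matches to the core of an interferon-stimulated response element (GAAA, any pair of bases, GAAA) or to TTCNNNGAA, the palindrome that STAT dimers bind, searched on both strands. GBP1 (chr1:89065209-89065458, minus strand), CXCL10 (chr4:76023498-76023747, minus strand) and TAP1 (chr6:32853705-32853954, minus strand) hold the first, 127, 221, and 134 and 128 bases before the start. In TAP1 the 2 matches overlap. ICAM1 (chr19:10270870-10271119, plus strand) and IRF1 (chr5:132490774-132491023, minus strand) hold the second, 75 and 124 bases before the start. Of 35116 promoter windows of the same length in the table, 3.02% hold the response element core and 6.57% hold TTCNNNGAA, so a match is a description of the letters and not a site.
GBP1: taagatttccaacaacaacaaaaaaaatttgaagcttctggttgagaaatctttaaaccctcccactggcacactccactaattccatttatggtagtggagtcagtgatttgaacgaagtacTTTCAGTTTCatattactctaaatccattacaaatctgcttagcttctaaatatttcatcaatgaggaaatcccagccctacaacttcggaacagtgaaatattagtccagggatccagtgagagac
CXCL10: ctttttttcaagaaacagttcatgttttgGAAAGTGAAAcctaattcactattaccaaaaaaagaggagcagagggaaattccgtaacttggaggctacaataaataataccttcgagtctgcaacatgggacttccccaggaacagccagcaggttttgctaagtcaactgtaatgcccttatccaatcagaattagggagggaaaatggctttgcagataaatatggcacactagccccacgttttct
TAP1: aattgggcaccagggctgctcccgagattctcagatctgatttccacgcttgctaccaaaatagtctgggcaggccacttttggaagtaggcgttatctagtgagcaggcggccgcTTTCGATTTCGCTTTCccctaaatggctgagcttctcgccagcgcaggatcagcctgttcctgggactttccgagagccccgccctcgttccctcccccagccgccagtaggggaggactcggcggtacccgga
ICAM1: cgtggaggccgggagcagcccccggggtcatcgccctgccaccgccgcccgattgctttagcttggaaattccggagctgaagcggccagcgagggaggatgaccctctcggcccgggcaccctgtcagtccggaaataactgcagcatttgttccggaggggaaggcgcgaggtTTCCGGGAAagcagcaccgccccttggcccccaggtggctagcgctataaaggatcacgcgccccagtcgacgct
IRF1: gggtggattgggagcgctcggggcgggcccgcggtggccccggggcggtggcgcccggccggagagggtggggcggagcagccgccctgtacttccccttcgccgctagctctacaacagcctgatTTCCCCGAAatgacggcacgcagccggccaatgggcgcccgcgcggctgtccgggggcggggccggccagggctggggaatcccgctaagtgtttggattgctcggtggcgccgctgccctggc

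Under interferon-gamma 212 of 637 genes tested (33.3%) were lower and 86 (13.5%) higher with the BTN1A1 label than with EV, 298 together (46.8%). In RNA from whole cultures, fewer cells that express a gene and less of its RNA per cell cannot be told apart. Among the lower genes were interferon-inducible ones, such as the tryptophan-degrading enzyme IDO1, the GTPase GBP1, the immunoproteasome subunit PSMB8 and the adhesion molecule ICAM1. PSMB8 and ICAM1 were also lower in the untreated pair (-4.18 and -2.74). These 2 values are log2 ratios of 1 library against 1, with values under 20 raised to 20 and no test. Large decreases outside the interferon lists were those of the Wnt inhibitor DKK1, the AP-1 factor FOSL1, the matrix protein thrombospondin 1 (THBS1) and cadherin 11 (CDH11). The higher genes were led by the cyclin CCND2, STAT3, the transcription factor IRF8, the differentiation inhibitor ID4 and the aminotransferase BCAT1. Differences not given for a library pair are log2 values, libraries labelled BTN1A1 minus EV, from edgeR's quasi-likelihood test. That test had time as a term and Benjamini-Hochberg adjustment at 0.05. The 133 genes without 20 scaled counts in at least 2 of the 4 libraries were left out.

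In this test the 2 times stand in for repeats, although a culture at 24 h is no replicate of one at 48 h. The model left 1 residual degree of freedom, so the p-values rest on the spread shared across genes, cover no more than the variation among these 4 libraries, which may be technical, and do not stand in for replicates. All 86 higher and all 212 lower genes had 1 sign at 24 h and at 48 h. The test fits 1 difference to both times, so this shared sign is largely fixed by the selection. Whether called or not, 256 of the 261 genes at least 2-fold different at 24 h had the same sign at 48 h. Of the lower genes 136 differed at least 4-fold, 49 at least 16-fold and 16 at least 64-fold. Of the higher genes 31, 5 and 1 did. In 91 of the 212 lower genes the libraries labelled BTN1A1 were both at background, as the EV libraries were in 39 of the 86 higher genes, so the background limits the size of these log2 values. The scaled counts of the vectors did not overlap in 271 genes that were lower (42.5%) and 147 that were higher (23.1%). The median difference of all 637 genes was -0.22. The balance of the calls moved with the scaling: TMM gave 116 higher and 176 lower (39.7% higher, median 0.07), total counts 204 and 159 (56.2% higher, median 0.49) and limma after quantile normalization 207 and 150 (58.0% higher, median 0.29), against 28.9% higher with housekeeping genes.

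Library against library, without a test and with values under 20 raised to 20, 203 of 627 genes (32.4%) were at least 2-fold lower and 58 (9.25%) at least 2-fold higher at 24 h. At 48 h 190 of 678 (28.0%) were lower and 88 (13.0%) higher. Of 614 genes compared at both times, 175 (28.5%) were lower and 51 (8.31%) higher by at least 2-fold each time, and 0 were at least 2-fold in opposite directions. Pearson's r between the differences at the 2 times was 0.95 across these 614 genes. Genes are not independent replicates, and each time has its own pair of libraries.

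**Figure D1:**
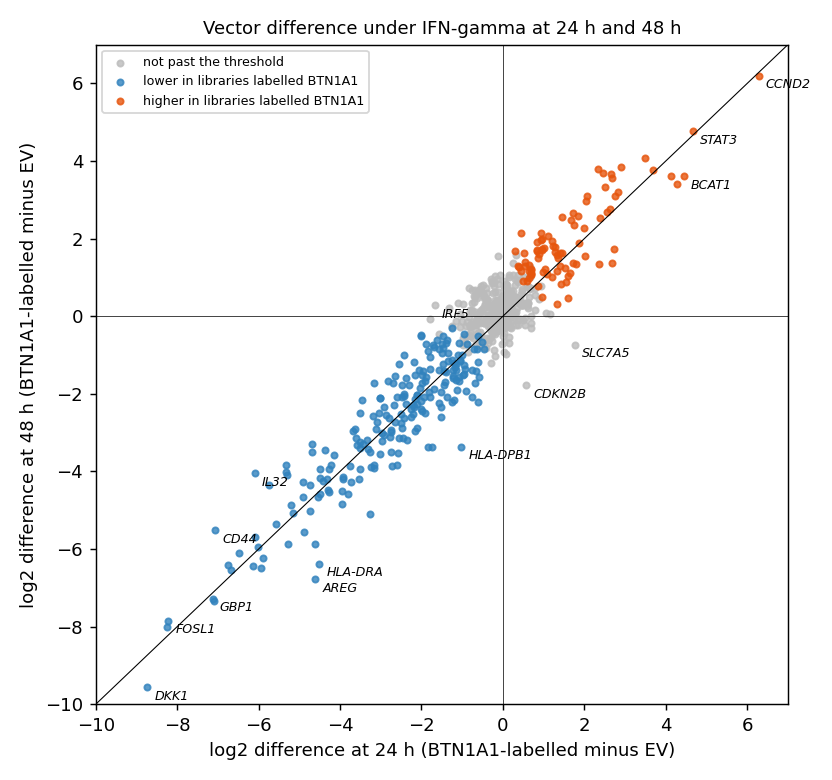
Log2 difference between the vectors under interferon-gamma at 24 h (horizontal) and 48 h (vertical), 1 point per gene, with values under 20 raised to 20 and the diagonal drawn. Genes past the edgeR threshold are blue (lower) or orange (higher) and lie along the diagonal from DKK1 (-8.73 and -9.56) to CCND2 (6.28 and 6.20), while SLC7A5 and CDKN2B change sign.

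In the interferon receptor and its signalling chain, IFNGR1 was higher in the libraries labelled BTN1A1, IFNGR2 and JAK1 did not pass the test, and JAK2, STAT2 and IRF9 were lower. Of 23 JAK-STAT genes measured, 22 were tested, 10 of them lower and 4 higher, with a median of -0.73 (-1.49 to 0.04 over the settings tried). These were 45.5% and 18.2%, against 33.3% and 13.5% of all genes tested. IFNGR1, the ligand-binding chain, stood at 227 and 223 counts in EV against 601 and 650 in those labelled BTN1A1, a difference of 1.47 (SE 0.32, adjusted p 1.36e-05 in edgeR's test). Both EV libraries were below both of the others. IFNGR2, the second chain, stood at 453 and 592 against 405 and 353 counts (-0.45, SE 0.31), and the kinase JAK1 at 406 and 337 against 416 and 307 (-0.05, SE 0.31). Neither passed, and both turn positive with total counts or quantile normalization.

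JAK2, the second kinase of the receptor, was lower, at 368 and 435 counts in EV against 106 and 71 (-2.20, SE 0.35). STAT2, the partner of IRF9 in the type I interferon complex, stood at 1151 and 1537 against 198 and 214 counts (-2.69, SE 0.32). IRF9 stood at 495 and 613 against 78 and 66 (-2.94, SE 0.35). The feedback inhibitor SOCS1 stood at 237 and 78 counts against 16 and 12 (-3.37, SE 0.51), the latter at background. IRF7 (-3.37), IRF2 (-1.57) and IRF3 (-1.20), other interferon regulatory factors, and the cytokine LIF (-4.62) were lower as well. IRF3 did not pass in 5 of 13 other settings, nor IRF2 in 1 of them.

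IRF1 was among the transcripts that stayed clearly measurable with either vector. It stood at 5153 and 6174 counts in EV against 482 and 313 in those labelled BTN1A1, a difference of -3.86 (SE 0.36, adjusted p 3.7e-23 in edgeR's test). The untreated pair stood at 169 and 75 counts, so each treated library labelled BTN1A1 was above both untreated libraries and far below each treated EV library. IRF8, an interferon-inducible factor known mainly from blood cells, went the other way. It stood at 6 and 9 counts in EV, which is background, against 167 and 149 in those labelled BTN1A1 (4.38, SE 0.54). STAT3 (5.25, SE 0.42) and STAT4 (1.56, SE 0.42) were the other higher members, and STAT4 was low throughout, at 17 and 13 against 43 and 46 counts, and did not pass without either EV library.

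Interferon-induced effectors had the lowest median of the 20 lists with housekeeping scaling. Of 31 measured and 30 tested, 28 were lower and 0 higher, with a median of -3.67, and 24 to 29 were lower over the settings tried. Under the cytokine 93.3% were lower, against 33.3% of all genes tested. In the untreated pair 18 of 30 were at least 2-fold lower and 1 higher, where 27.8% of all genes compared were lower and 11.3% higher. IDO1, which depletes tryptophan, stood at 7385 and 10306 counts in EV against 26 and 37 in those labelled BTN1A1 (-8.12, SE 0.48, adjusted p 2.9e-51 in edgeR's test). GBP1, a guanylate-binding protein of cell-autonomous defence, stood at 3049 and 3691 against 15 and 22 counts (-7.50, SE 0.43). Both genes were at or near background in the libraries labelled BTN1A1, as they were in the untreated pair (56 and 34 counts for IDO1, 22 and 8 for GBP1). Its relatives GBP4, at 3377 and 3392 against 34 and 37 counts (-6.57, SE 0.40), and GBP2, at 1282 and 2252 against 21 and 28 (-6.13, SE 0.39), showed the same order.

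The antiviral genes differed in how far the treated libraries labelled BTN1A1 stood above background. The RNA-sensing synthetase OAS2 stood at 1347 and 1574 counts in EV against 11 and 10 (-7.10, SE 0.42), and OAS1 at 644 and 830 against 11 and 11 (-6.04, SE 0.42). The ubiquitin-like protein ISG15 stood at 5087 and 5710 against 85 and 85 counts (-5.98, SE 0.40), and the GTPase MX1 at 337 and 505 against 13 and 13 (-4.98, SE 0.43). OAS1, OAS2 and MX1 were thus at background where ISG15 was above it. Effectors that kept at least 182 counts in both libraries labelled BTN1A1 included PARP9, an ADP-ribosyltransferase, at 1920 and 1874 against 182 and 184 (-3.37, SE 0.33). Its ubiquitin ligase partner DTX3L stood at 2139 and 2542 against 428 and 383 counts (-2.53, SE 0.32). The membrane protein IFITM1, which blocks viral entry, stood at 1820 and 3185 against 291 and 372 (-2.87, SE 0.33), and the DNA sensor IFI16 at 1255 and 1491 against 505 and 429 (-1.56, SE 0.31), a call that ended after quantile normalization. The kinase EIF2AK2, which halts translation on double-stranded RNA, did not pass at 1110 and 785 against 658 and 515 counts (-0.68, SE 0.30, adjusted p 0.0516 in edgeR's test), and neither did the ribonuclease ZC3H12A at 23 and 25 against 18 and 25.

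**Figure D2:**
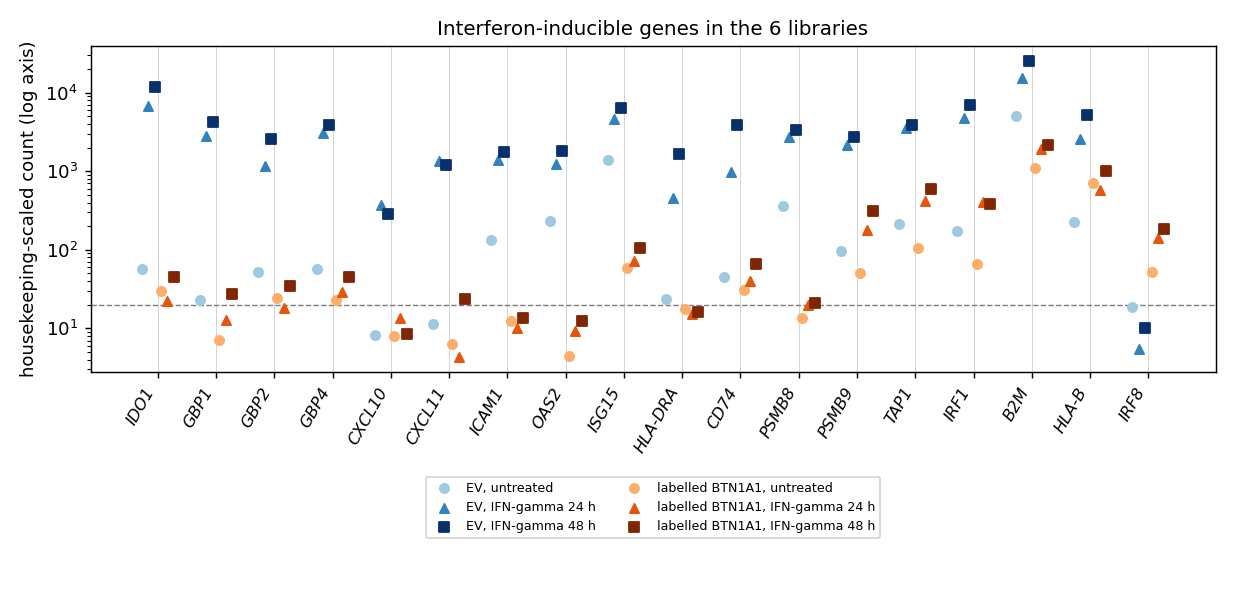
Housekeeping-scaled counts (log axis) of 18 interferon-inducible genes in the 6 libraries, 1 point per library, with the floor of 20 dashed. EV libraries with interferon-gamma (dark blue) stand highest for every gene shown but IRF8, and the libraries labelled BTN1A1 (orange to brown) lie near the floor for IDO1, GBP1, CXCL10, ICAM1 and PSMB8 and well above it for PSMB9, TAP1, IRF1, B2M and HLA-B.

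Of 15 genes of class I presentation, which displays peptides to CD8 T cells, all were tested, 14 were lower and 0 higher (median -2.26). That is 93.3% lower, against 33.3% of all genes tested. Over the settings tried 10 to 14 were lower. The light chain B2M stood at 16630 and 22469 counts in EV against 2226 and 1773 in those labelled BTN1A1 (-3.28, SE 0.43). The peptide transporter TAP1 stood at 3850 and 3462 against 490 and 485 counts (-2.90, SE 0.33), and TAP2 at 1616 and 1302 against 376 and 244 (-2.26, SE 0.31). The 3 inducible subunits of the immunoproteasome were not alike. PSMB8 stood at 2986 and 2971 counts against 23 and 17, which is background (-7.22, SE 0.42). PSMB9 stood at 2346 and 2414 against 207 and 251 (-3.38, SE 0.33), and PSMB10 at 608 and 663 against 34 and 40 (-4.10, SE 0.37). PSMB5, the standard subunit that PSMB8 replaces, did not pass at 1844 and 1468 against 2039 and 1013 counts (-0.19, SE 0.30).

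HLA probes can bind related copies, so the HLA genes are uncertain as single genes. HLA-B stood at 2801 and 4540 counts in EV against 669 and 832 in those labelled BTN1A1 (-2.26, SE 0.33). Its untreated pair had the opposite order, 219 counts in EV against 799. HLA-C, at 592 and 908 against 407 and 316 counts (-1.03, SE 0.31), also had an opposite untreated order, 126 against 284. The NK cell ligand HLA-E stood at 3352 and 3345 against 795 and 1356 (-1.69, SE 0.32). The call for HLA-C ended in 6 of 13 other settings, all 3 that changed the scaling among them, and the call for HLA-E in 2.

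Class II genes, which present peptides to CD4 T cells, showed a larger gap at 48 h than at 24 h in several members. Of 14 measured and 12 tested, 7 were lower (58.3%, against 33.3% of all genes) and 0 higher (median -1.93). Without the 48 h EV library 4 of 10 tested were lower (median -0.80), and quantile normalization gave 6 lower and 3 higher. HLA-DRA stood at 495 and 1473 counts in EV against 18 and 13 in those labelled BTN1A1 (-5.78, SE 0.41), with pair differences of -4.51 at 24 h and -6.38 at 48 h. The invariant chain CD74 stood at 1068 and 3441 against 47 and 54 counts (-5.26, SE 0.37), with -4.62 and -5.88. HLA-DPB1 stood at 44 and 199 against 19 and 18 (-2.41, SE 0.50), with -1.02 and -3.36, and did not pass without the 48 h EV library. In all 3 genes it was the EV count that was higher at 48 h, while the counts labelled BTN1A1 stayed at or near background. The invariant-chain protease CTSS had the larger gap at 24 h, at 1366 and 700 against 37 and 40 counts (-4.67, SE 0.37). HLA-DMB (-0.46), HLA-DOA (0.07), HLA-DOB (0.37) and HLA-DQB1 (0.22) did not pass.

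Of 24 chemokines and colony factors measured, 19 were tested, 11 lower (57.9%, against 33.3% of all genes) and 0 higher (median -1.29). Over the settings 5 to 11 were lower. The 3 ligands of the T cell receptor CXCR3 were at background in both libraries labelled BTN1A1. CXCL11 stood at 1471 and 1050 counts in EV against 5 and 19 (-6.71, SE 0.42), CXCL10 at 401 and 253 against 16 and 7 (-4.87, SE 0.46), and CXCL9 at 249 and 99 against 10 and 13 (-3.79, SE 0.52). Neutrophil attractants were lower too, with CXCL2 at 770 and 529 against 31 and 24 counts (-4.55, SE 0.38) and CXCL8 at 249 and 193 against 21 and 17 (-3.53, SE 0.46). These differed from the CXCR3 ligands in the untreated pair, where CXCL2 stood at 395 against 17 counts and CXCL8 at 175 against 23, while CXCL11 stood at 11 against 7.

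Checkpoint and co-stimulatory ligands gave 11 lower and 0 higher of 25 tested and 27 measured (median -0.57, -1.42 to 0.14 over the settings). The lower share was 44.0%, against 33.3% of all genes tested. CD274 (PD-L1), the ligand of PD-1, stood at 64 and 92 counts in EV against 7 and 18 in those labelled BTN1A1 (-2.66, SE 0.49, adjusted p 3.35e-07 in edgeR's test). PDCD1LG2 (PD-L2) stood at 322 and 244 against 42 and 40 (-2.77, SE 0.40). CD47, the signal that restrains phagocytes, stood at 4184 and 3149 against 1165 and 1086 (-1.69, SE 0.32), a call that ended after quantile normalization. NT5E, which makes adenosine, stood at 278 and 258 against 16 and 31 (-3.53, SE 0.43), and TNFRSF14, the ligand of BTLA, at 234 and 283 against 19 and 27 (-3.49, SE 0.43). The 14 members that did not pass included CD80, CD86, CD276, VTCN1 and MICA.

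Of 37 NF-kB and inflammatory genes measured, 31 were tested, 20 lower and 1, the kinase CHUK, higher (0.75, SE 0.33), with a median of -1.25. Lower genes made up 64.5%, against 33.3% of all genes tested. The lower count was 8 to 21 over the settings. ICAM1, a ligand of leukocyte integrins, stood at 1524 and 1527 counts in EV against 12 and 11 in those labelled BTN1A1 (-7.04, SE 0.42). The cytokine IL18 stood at 843 and 1258 against 11 and 20 (-6.08, SE 0.40), and the adaptor MYD88, shared by most Toll-like receptors, at 654 and 420 against 2 and 20 (-5.62, SE 0.44). All 3 were at background in both libraries labelled BTN1A1. IL32 stood at 2977 and 799 against 47 and 45 counts (-5.08, SE 0.38), a gap that was wider at 24 h (-6.10) than at 48 h (-4.04). The subunits NFKB1 (-0.90, SE 0.32) and RELA (-1.09, SE 0.31) and the inhibitor NFKBIA (-2.11, SE 0.32) were lower by less. The calls for CHUK, NFKB1 and RELA ended in 8, 9 and 6 of 13 other settings. Cell death genes gave 7 lower and 3 higher of 19 tested and 20 measured (median -0.20, -1.10 to 0.71 over the settings). These shares, 36.8% and 15.8%, were near the 33.3% and 13.5% of all genes tested. The survival factor BCL2L1 stood at 3043 and 2695 against 166 and 137 counts (-4.25, SE 0.35). The inflammatory caspase CASP1 stood at 210 and 242 against 16 and 20 (-3.64, SE 0.46). The BH3-only factor BBC3 was higher, at 24 and 37 against 136 and 199 (2.46, SE 0.45).

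**Figure D3:**
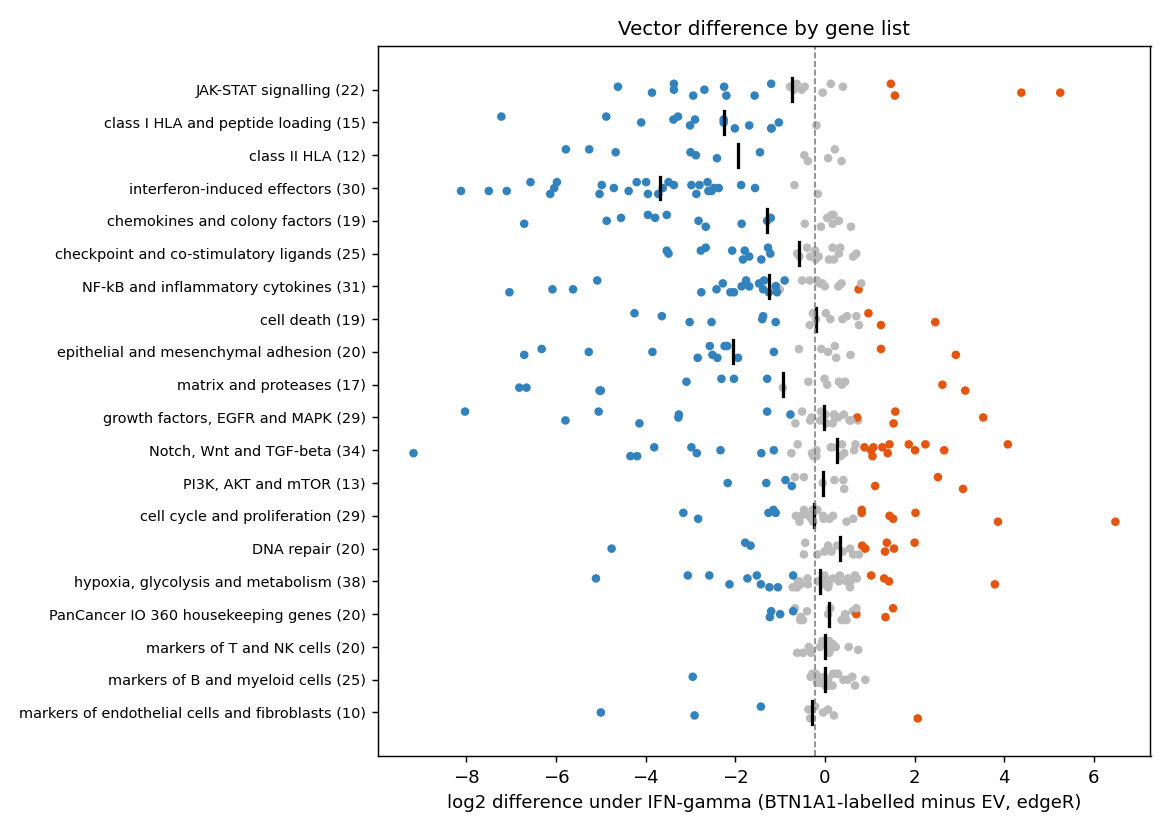
Log2 difference under interferon-gamma for the tested members of each of 20 gene lists (number tested in brackets), with genes past the edgeR threshold in blue (lower) or orange (higher), others grey, list medians as black bars and the median of all genes (-0.22) dashed. Interferon-induced effectors (median -3.67) and class I genes (-2.26) lie furthest left, and T and NK cell markers (0.01) hold no called gene.

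Of 23 adhesion genes measured, 20 were tested, 12 lower and 2 higher (median -2.06). The settings gave 10 to 12 lower and 1 to 5 higher. In the untreated pair 11 of 22 were at least 2-fold lower, against 27.8% of all genes compared there. The mesenchymal cadherin CDH11 stood at 2241 and 2694 counts in EV against 20 and 27 in those labelled BTN1A1 (-6.71, SE 0.40), and at 1504 against 33 untreated. The hyaluronan receptor CD44 stood at 2892 and 1722 against 21 and 35 (-6.32, SE 0.40), and at 1478 against 28 untreated. The receptor kinase AXL stood at 658 and 445 against 14 and 14 (-5.27, SE 0.42). All 3 were at background in the libraries labelled BTN1A1 with or without the cytokine. ITGA6, a laminin-binding integrin, kept 204 and 242 counts against 3343 and 3098 in EV (-3.85, SE 0.34). CDH2, the neural cadherin, did not pass at 1005 and 712 against 578 and 557 (-0.58, SE 0.30). The repressor ZEB2 was higher, at 34 and 27 against 248 and 214 counts (2.92, SE 0.43).

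Of 23 matrix and protease genes measured, 17 were tested, 8 lower and 2 higher (median -0.94). As shares these were 47.1% and 11.8%, against 33.3% and 13.5% of all genes. Without the 24 h EV library 4 of 15 tested were lower (median -0.44) and without the 48 h one 5 of 15 (median -0.18), while total counts and quantile normalization each gave 5 higher and 7 lower. In the untreated pair 10 of 19 were at least 2-fold lower, against 27.8% of all genes compared there. THBS1 stood at 1947 and 1481 counts against 10 and 20 (-6.82, SE 0.41), and the laminin chain LAMB3 at 1038 and 725 against 8 and 9 (-6.66, SE 0.43). The proteoglycan versican (VCAN) was higher, at 72 and 44 against 487 and 514 (3.13, SE 0.36), as was another laminin chain, LAMA1, at 24 and 16 against 108 and 140 (2.62, SE 0.48). LAMB3 and LAMA1 therefore did not share a direction. The collagenase MMP1 stood at 57 and 48 counts against 9 and 12 (-2.31, SE 0.45), where the untreated pair stood at 434 against 7.

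Growth factor and MAPK genes gave 8 lower and 4 higher of 29 tested and 30 measured (median -0.02, -0.30 to 0.70 over the settings, with 3 to 13 higher). The lower share, 27.6%, was below the 33.3% of all genes tested, and the higher share, 13.8%, was close to 13.5%. FOSL1, a late target of ERK signalling, stood at 13216 and 11467 counts in EV against 48 and 46 (-8.03, SE 0.50). The EGFR ligand AREG stood at 530 and 2970 against 22 and 25 (-5.79, SE 0.40), and the ERK inhibitor SPRY4 at 328 and 310 against 8 and 11 (-5.05, SE 0.47). The hepatocyte growth factor receptor MET stayed measurable, at 4627 and 4877 against 492 and 492 (-3.27, SE 0.35). The stem cell factor receptor KIT was higher, at 25 and 13 against 201 and 235 (3.53, SE 0.46). KIT was thus at background in EV, as FOSL1 was close to it in the libraries labelled BTN1A1.

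With housekeeping scaling the Notch, Wnt and TGF-beta list held the most higher genes of any list, 12 of 34 tested and 38 measured, beside 9 lower (median 0.26, -0.08 to 0.98 over the settings). Higher genes made up 35.3% and lower ones 26.5%, against 13.5% and 33.3% of all genes tested. The number of higher members ranged from 3 to 18 over the settings. DKK1, a secreted Wnt inhibitor, had the lowest value of all genes, at 9203 and 13264 counts in EV against 23 and 15 (-9.18, SE 0.53, adjusted p 1.24e-53 in edgeR's test). The Notch ligand JAG1 stood at 533 and 1153 against 41 and 45 (-4.19, SE 0.36), while the ligand DLL1 was higher, at 21 and 14 against 96 and 128 (2.66, SE 0.49). The Notch targets HEY1, at 571 and 1650 against 3934 and 3923 counts (2.01, SE 0.34), and HES1, at 133 and 157 against 256 and 475 (1.28, SE 0.34), were higher, though neither passed without the 24 h EV library, nor HES1 without the 48 h library labelled BTN1A1. TGFB2 stood at 735 and 646 against 35 and 33 (-4.34, SE 0.37) and the receptor TGFBR2 at 430 and 430 against 77 and 95 (-2.33, SE 0.35). ID4, an inhibitor of helix-loop-helix factors and a BMP target, stood at 13 and 18 against 304 and 229 (4.08, SE 0.46).

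**Figure D4:**
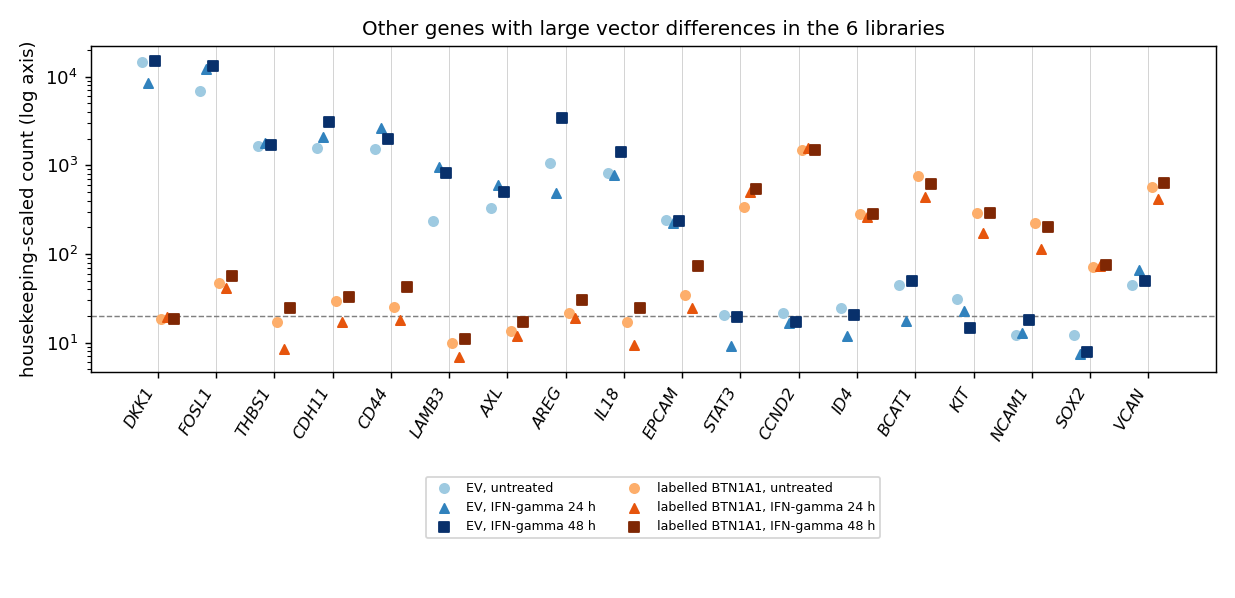
Housekeeping-scaled counts (log axis) of 18 further genes in the 6 libraries, 1 point per library, with the floor of 20 dashed. The genes from DKK1 to EPCAM are higher in all 3 EV libraries (blue), those from STAT3 to VCAN higher in all 3 libraries labelled BTN1A1 (orange to brown), with or without interferon-gamma.

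CCND2 had the highest value of all genes, at 18 and 15 counts in EV against 1825 and 1197 in the libraries labelled BTN1A1 (6.48, SE 0.41, adjusted p 6.11e-47 in edgeR's test). Its paralogue CCND1, the other D-type cyclin that differed, was lower, at 3137 and 2189 against 509 and 268 counts (-2.83, SE 0.32). CCNE1, at 106 and 35 against 384 and 166 (2.02, SE 0.38), and the kinase CDK6, at 288 and 164 against 729 and 533 (1.52, SE 0.32), were higher, but neither passed without the 48 h EV library. Of all 29 cell cycle genes, each measured and tested, 7 were higher and 5 lower (median -0.24, up to 0.91 over the settings, with 2 to 20 higher). The cell cycle shares were 24.1% higher and 17.2% lower, against 13.5% and 33.3% of all genes. MKI67, CCNB1, RB1 and CDKN1A were among the 17 that did not pass. DNA repair genes gave 6 higher and 3 lower of 20 (median 0.33), with 1 to 14 higher over the settings. For DNA repair these shares were 30.0% higher and 15.0% lower. The helicase BLM stood at 274 and 182 against 581 and 553 counts (1.34, SE 0.32), and RAD50, of the double-strand break complex, at 234 and 225 against 688 and 649 (1.54, SE 0.32). NBN, its partner in that complex, was lower, at 1642 and 1492 against 555 and 376 (-1.78, SE 0.31). BLM did not pass without the 48 h EV library, nor NBN after quantile normalization.

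Of 39 hypoxia, glycolysis and metabolism genes, 38 were tested, 10 lower and 4 higher (median -0.11, -0.37 to 0.76 over the settings, with 1 to 18 higher and 4 to 11 lower). With 26.3% lower and 10.5% higher, this list lay below all genes tested (33.3% and 13.5%). The lactate dehydrogenase subunits had opposite directions, LDHA at 32990 and 19527 counts in EV against 13827 and 4261 (-1.73, SE 0.45) and LDHB at 4447 and 2953 against 12362 and 7754 (1.43, SE 0.37). Without either EV library neither passed, and LDHA also did not pass with TMM or without the 48 h library labelled BTN1A1. HIF1A, the oxygen-regulated factor, stood at 6087 and 9332 against 1097 and 748 (-3.06, SE 0.37), and the lymphangiogenic factor VEGFC at 1410 and 1613 against 43 and 44 (-5.11, SE 0.37). The arginase ARG2 was higher, at 40 and 38 against 490 and 595 (3.79, SE 0.37). PI3K and mTOR genes gave 4 lower and 3 higher of 13 tested and 15 measured (median -0.05), but total counts gave 1 lower and 6 higher (median 0.66), and 1 was lower with TMM, after quantile normalization or without either EV library. With housekeeping scaling the PI3K and mTOR shares were 30.8% lower and 23.1% higher, against 33.3% and 13.5% of all genes. The mTOR inhibitor DEPTOR stood at 30 and 16 against 164 and 225 counts (3.08, SE 0.46).

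Other large increases lay outside the lists. BCAT1, which transfers amino groups from branched-chain amino acids, stood at 19 and 44 counts in EV against 509 and 498 in the libraries labelled BTN1A1 (4.07, SE 0.39). The neural adhesion molecule NCAM1 stood at 14 and 16 against 135 and 163 (3.30, SE 0.49), and the stem cell factor SOX2 at 8 and 7 against 85 and 61 (3.25, SE 0.51). The cancer-testis antigen MAGEB2 stood at 24 and 29 against 500 and 283 (3.82, SE 0.40), and the orphan receptor GPR160 at 68 and 51 against 472 and 556 (3.11, SE 0.36). Of these, BCAT1 was above background in EV at 48 h and GPR160 at both times, and the other 3 were at background there.

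Markers of other cell types were counted in the same test. Of 34 T and NK cell markers 20 were tested and 0 passed in edgeR's test (0 at an unadjusted p under 0.05, and 0 called by DESeq2 or by limma on floored values), with 0 to 3 higher and 0 to 2 lower over the settings. The largest values that did not pass were those of KLRB1 (0.74), TIGIT (-0.62), GZMK (0.53) and CD7 (-0.49). Of 35 B and myeloid markers 25 were tested, and CD68, a lysosomal protein also made outside the myeloid lineage, was lower at 103 and 93 against 18 and 8 counts (-2.95, SE 0.50). With TMM 5 of these markers were higher, with total counts 7 and after quantile normalization 6, and CD68 did not reach the filter without either EV library. Of 11 endothelial and fibroblast markers 10 were tested: COL6A3 (-5.00), KDR (-2.91) and PECAM1 (-1.43) were lower and FLT1 (2.07) was higher. These shares, 30.0% lower and 10.0% higher, did not exceed the 33.3% and 13.5% of all genes tested. The 20 housekeeping genes gave 3 higher, POLR2A and SF3A1 among them, and 4 lower (median 0.09). PECAM1 did not pass with total counts or in DESeq2, POLR2A without the 48 h EV library, and SF3A1 in 8 of 13 other settings.

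How far these differences depended on the cytokine was read from the untreated pair and tested as an interaction. All 86 higher genes could be compared in the untreated pair, and 62 were at least 2-fold higher there as well. Of 207 lower genes that could be compared, 142 were at least 2-fold lower untreated, 63 differed by less than 2-fold, and HLA-B (1.66) and IFI16 (1.32) were at least 2-fold higher. In the untreated pair 187 of 672 genes (27.8%) were at least 2-fold lower and 76 (11.3%) higher. The interaction, the difference under interferon-gamma minus the untreated one, passed for 30 of 669 genes (4.48%) in edgeR's test, 28 negative (4.19%) and 2 positive (0.299%). Of the 212 lower genes 25 passed with a negative interaction and MMP1 with a positive one. Of the 86 higher genes IRF8 passed. Without either treated EV library neither MMP1 nor IRF8 passed, and 0 interactions were positive. The untreated arms are 1 library each, so the spread in this test comes from the treated libraries. The interaction model had no time term and took the 24 h and 48 h libraries of a vector as repeats, which they are not.

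By list, a negative interaction passed for 11 of 30 effectors, 6 of 12 class II genes and 4 of 15 class I genes, against 4.19% of all genes tested. It also passed for 2 of 22 chemokines, 2 of 31 NF-kB genes, 2 of 29 growth factor genes and 1 of 22 JAK-STAT genes. So few genes per list say little about these 4 lists. A negative interaction passed for 0 checkpoint, cell death, adhesion, Notch and Wnt, PI3K, cell cycle, DNA repair and metabolism genes. In these lists 0 to 3 genes each had an unadjusted p under 0.05 in edgeR's test, in either direction. DESeq2 and limma on floored values called 0 of them. A p that misses the threshold does not show that these differences were equal. DKK1 had -9.49 in the untreated pair and FOSL1 -7.19, close to their treated values. CCND2 had 6.10 untreated and BCAT1 4.06. GBP1 had -0.18 untreated, HLA-DRA -0.24 and CD74 -0.54. OAS2 (-3.54), ISG15 (-4.55) and PSMB8 (-4.18) lay between, since EV held 226, 1342 and 353 counts of them without the cytokine. The floor shrinks the untreated value of GBP1, whose scaled counts were 22.6 in EV and 7.13 with the BTN1A1 label. The 24 h libraries also differ in culture time from the untreated ones.

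**Figure D5:**
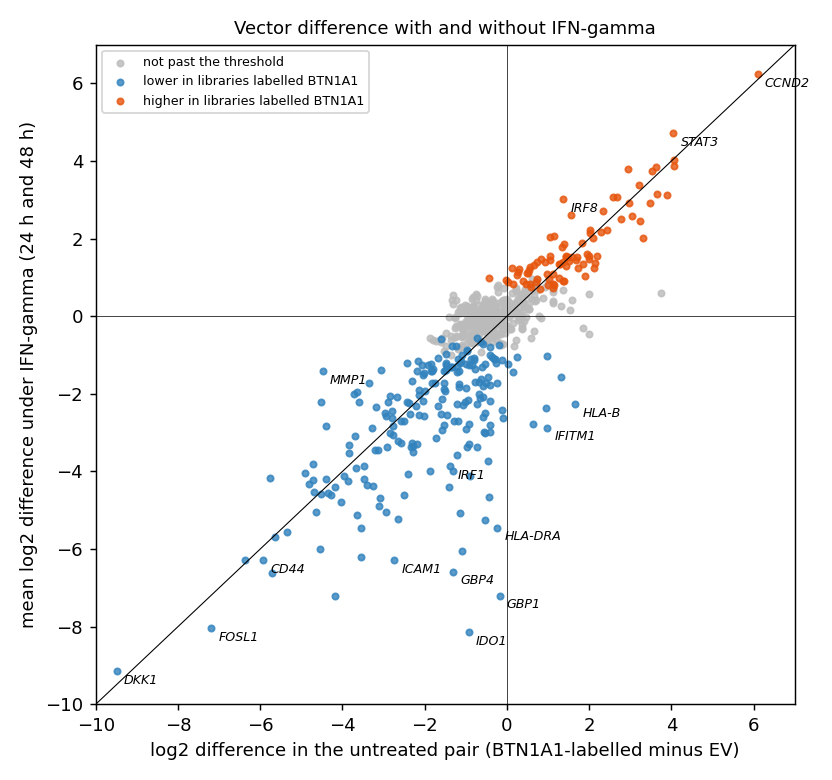
Log2 difference between the vectors in the untreated pair (horizontal) and its mean over 24 h and 48 h of interferon-gamma (vertical), 1 point per gene, with values under 20 raised to 20 and the diagonal drawn. DKK1, FOSL1, CD44, STAT3 and CCND2 lie near the diagonal, IDO1, GBP1, GBP4 and HLA-DRA far below it, and MMP1 above it.

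Between 24 h and 48 h the difference moved by a median of 0.43 (log2) over the 614 genes. The signed difference at 48 h was at least 2-fold above that at 24 h for 67 genes and at least 2-fold below it for 22, without a test. The median scaled count of the 69 lymphocyte and myeloid markers was 21.2 at 24 h and 22.7 at 48 h in EV. With the BTN1A1 label it was 18.7 and 25.7. The part of this background in the 67 and 22 genes was not tested. The amino acid transporter SLC7A5 stood at 275 and 847 counts in EV against 1007 and 471 in those labelled BTN1A1, so its difference went from 1.76 to -0.73. The cyclin kinase inhibitor CDKN2B stood at 65 and 338 against 104 and 92 counts, from 0.57 to -1.77. In EV both genes were higher at 48 h, while with the BTN1A1 label SLC7A5 was lower at 48 h and CDKN2B differed little between the times. Neither passed in edgeR's test. AREG went from -4.61 to -6.78 and the ERK phosphatase DUSP5 from -3.27 to -5.09, with EV counts higher at 48 h. CD44 went from -7.06 to -5.51, EPCAM from -3.17 to -1.72, and HEY1 from 2.67 to 1.36. The CD44 counts with the BTN1A1 label, 21 and 35, were at background both times.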

How the data were processed

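Total RNA was hybridised to the panel, per the labels' protocols. The authors deposited a barcode count for each probe and library, and all 4620 values were whole numbers. The steps from scan to count, control probes included, are not given in the sources used here, and no background was subtracted. Groups came from the treatment labels. Library sizes were set by the geometric mean of 20 housekeeping genes, and the 637 genes that reached 20 scaled counts in 2 or more of the 4 libraries were tested with edgeR 4.0.16 in R 4.3.3 (quasi-likelihood, vector and time as terms). The interaction used all 6 libraries and 669 genes, with vector, treatment and their product as terms and no time term. SEs were derived from the F statistic (size of the log2 difference over its square root), so they restate the test. Library pairs used a floor of 20 and carry no test. DESeq2 1.42.0, limma 3.58.1, other scalings, filters and floors, and fits without each treated library were alternatives. The code was tested on simulated counts. Of 770 probe names 756 matched current RefSeq symbols (GRCh38.p14), 6 synonyms only and 8 neither.

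The members, the 20 gene lists and the tests were chosen with earlier results of these data known. The genes named are the 12 largest differences per direction, up to 4 members per list, the 5 largest per direction in each pair and in the interaction, a fixed set of interferon, HLA, chemokine and checkpoint genes, and interferon genes under 2-fold. Other genes named as examples were chosen after their values were seen, and some genes named by the rule are not reported here.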

Additional observations from a re-analysis of the deposited data

Results flagged for a closer look

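For 20 of the 119 genes picked by the naming rule the difference between the vectors under interferon-gamma was itself different from that in the untreated pair, by the interaction term of edgeR's quasi-likelihood test. Over all genes it passed for 30 of 669 (4.48%). The rule picks some genes for a large interaction, so part of the count of 20 is fixed by the selection. The values are log2, the treated difference minus the untreated one. The tryptophan-degrading enzyme IDO1 had -7.19, the GTPases GBP1 -5.84, GBP4 -5.25 and GBP2 -5.09, and the chemokines CXCL11 -5.76 and CXCL10 -4.80. In class II presentation HLA-DRA had -5.67, the invariant chain CD74 -5.00, the protease CTSS -4.24, HLA-DMB -3.03 and HLA-DMA -2.63. HLA-B had -3.94, and the immunoproteasome subunits PSMB10, PSMB8 and PSMB9 had -3.03, -2.49 and -2.37. The cytokine IL32 had -4.12, the adhesion molecule ICAM1 -3.64 and the factor IRF1 -2.51. The collagenase MMP1 (3.85) and the factor IRF8 (2.90) had the opposite sign. IFITM1 (-3.89) and IFI16 (-2.89), described in the results but not picked by the rule, passed as well. Over 8 other settings the interaction no longer passed in 7 for PSMB8, PSMB9 and HLA-DMA, in 6 for IRF8, in 5 for HLA-DMB, in 4 for IRF1, in 2 for MMP1 and in 1 for CD74, IL32 and PSMB10. For MMP1 these were the 2 fits that left out an EV library, and IRF8 did not pass in them either. The libraries labelled BTN1A1 were at or near background for most of these genes in every condition, and the part of that background, and of the origin of the cultures, in these values was not tested.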

How the results depend on the processing

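Against the 298 calls (86 higher, 212 lower), the higher count was 204 with total counts and 207 in limma after quantile normalization. Without each treated library in turn, 178 to 253 genes passed, 41 to 67 higher and 136 to 207 lower. The 30 interaction calls became 18 with TMM (1 higher, 17 lower), and 1 was higher with a minimum of 50, in DESeq2 and in limma on floored values; without each library 13 to 39 passed, 0 to 7 higher and 13 to 37 lower. At 24 h the pair gave 106 higher with TMM and 93 with equal medians, against 58, and at 48 h 57 with a floor of 50, against 88. Of the calls, 25 higher and 113 lower genes passed in every setting. In that count a gene left untested by the filter of a setting stands as not passing. DKK1 and CCND2, called in all 11 other settings that tested them, are therefore left out of it. By the looser measure, of the 98 called genes that the naming rule picked, 88 passed in every setting that tested them. Other named genes that lost a call are given with their values. Of the 212 lower genes, 1 turned positive with total counts and 12 after quantile normalization, among them NFKB1 (0.03). The genes picked by the rule whose log2 difference changed sign had not passed. With total counts these values were 0.10 for TIGIT, 0.22 for CD7, 0.26 for IFNGR2, 0.67 for JAK1, 0.14 for CDH2, 0.03 for IFNAR1, 0.20 for PTPN11, 0.52 for PSMB5, 0.26 for HLA-DMB, 0.04 for EIF2AK2 and 0.56 for ZC3H12A. After quantile normalization they were 0.09 for CD7, 0.48 for IFNGR2, 0.87 for JAK1, 0.51 for CDH2, 0.25 for IFNAR1, 0.80 for PTPN11, 1.05 for PSMB5, 0.68 for HLA-DMB and 0.44 for EIF2AK2. With TMM JAK1 had 0.25, PSMB5 0.11 and ZC3H12A 0.13, and on floored values ZC3H12A had 0.01. Without 1 library at a time the values ran from -0.37 to 0.60 for JAK3, -0.44 to 0.05 for PSMB5, -0.55 to 1.19 for HLA-DQB1, -1.08 to 0.18 for HLA-DMB and -0.67 to 0.32 for ZC3H12A. The cause of these changes was not tested. The main model pairs the libraries by time; without that term 72 genes were higher and 202 lower. The labels give no replicate numbers, so no other pairing was tried. Counts near the immune marker background limit the lower end of every ratio.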
